A study of Mus musculus with 6 samples.

Results

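The genes described here are 42 genes of mitosis in cultured 4T1 cells: the kinases that start and drive cell division, the spindle checkpoint, the kinetochore, the spindle, and the proteins that end division. They were taken by symbol from a list of gene names, and 42 of 42 names were found among the 12656 genes of the expression table. That rule uses no measured value, but the list was chosen with earlier results of these data known. 4T1 is a mouse mammary carcinoma line that serves as a triple-negative breast cancer model. One group of 3 libraries came from 4T1 cells given DMSO, the solvent, and the other group of 3 libraries from 4T1 cells given LP-184, a DNA-damaging anticancer compound, for 48 h. All libraries came from the same single line with no genetic change stated, and the dose was not given in the sources used here. Nothing says that replicates were grown as separate cultures, so the p-values reflect only how these libraries vary, and that variation may be technical. The series also holds human cells and single cells of mouse tumours, which were not analysed here.

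Values are CPM, the reads of a gene scaled to the size of its library, or their log2, from polyadenylated RNA. The libraries held 18864368 to 22471753 reads over the genes of the table. Of the epithelial markers Epcam, Krt8, Krt18, Krt19, Cdh1 and Cldn4, 6 of 6 were in the table, with a summed level of 3452 to 3469.9 CPM in DMSO and 3391 to 3419 CPM in LP-184 libraries. Of 7 fibroblast markers only Pdgfra was in the table, and of 4 endothelial markers none was. Of 7 leukocyte markers, Ptprc, Cd3e and Adgre1 were not in the table, and the other 4 summed to 12.9 to 14.8 CPM in DMSO and 61.1 to 72.9 CPM in LP-184 libraries. Csf1r and Cd68 made up most of that sum, while Lyz2 measured 1.61, 1.96 and 1.28 CPM in DMSO and was at 0 reads in all 3 LP-184 libraries. The part of that difference in the results below was not tested.

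In mitosis, cyclin B with CDK1 and the Polo and Aurora kinases drive chromosome condensation and spindle assembly. Kinetochores, built on centromeres marked by the histone variant CENP-A, attach chromosomes to microtubules mainly through the NDC80 complex. Until every kinetochore is attached, the spindle assembly checkpoint holds back CDC20, the activator of the anaphase-promoting complex, and with it the separase that cuts the cohesin between sister chromatids. Most of these genes are transcribed late in the cell cycle. Their promoters often carry a CCAAT box, bound by NF-Y, and a cell cycle genes homology region (CHR), bound by complexes of the MuvB core: DREAM in resting cells, and MuvB with B-MYB and FOXM1 in dividing cells.

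The 42 genes did not move as a block. With LP-184, 22 rose, 13 fell and 7 were not called by the test (limma, Benjamini-Hochberg adjusted p under 0.05 over the 11931 genes tested). Of all genes tested, 38.3% were higher, 40.0% lower and 78.3% passed in either direction, so a call by itself sets no mitotic gene apart. The mitotic genes' shares were 52.4% higher and 31.0% lower. With each library centred on its median over all genes, the split was 27 higher and 10 lower. All genes tested also moved upward under that scaling, to 5195 higher and 4222 lower of 11931. The groups did not overlap for 35 of the 42, beside 79.1% of all genes. In bulk RNA, a different share of cells in mitosis and a different amount of RNA per mitotic cell cannot be told apart.

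Changes were mostly small. The median log2 fold change of the 42 genes was 0.11, beside -0.0060 over all genes tested, and the median of its absolute value was 0.34, beside 0.47. Only 4 members rose by 1.5-fold or more (Aurka, Espl1, Pttg1 and Aurkb), beside 18.9% of all genes. Likewise 4 fell by 1.5-fold or more (Kntc1, Nuf2, Anln and Melk), beside 22.3% of all genes. Reads per member and library ran from 238 for Kntc1 to 17819 for Top2a, and the median standard error of their log2 fold change was 0.035. The authors' deposited table calls 22 members higher and 13 lower at its adjusted p under 0.05, with 0 calls different from those given here.

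**Figure D1:**
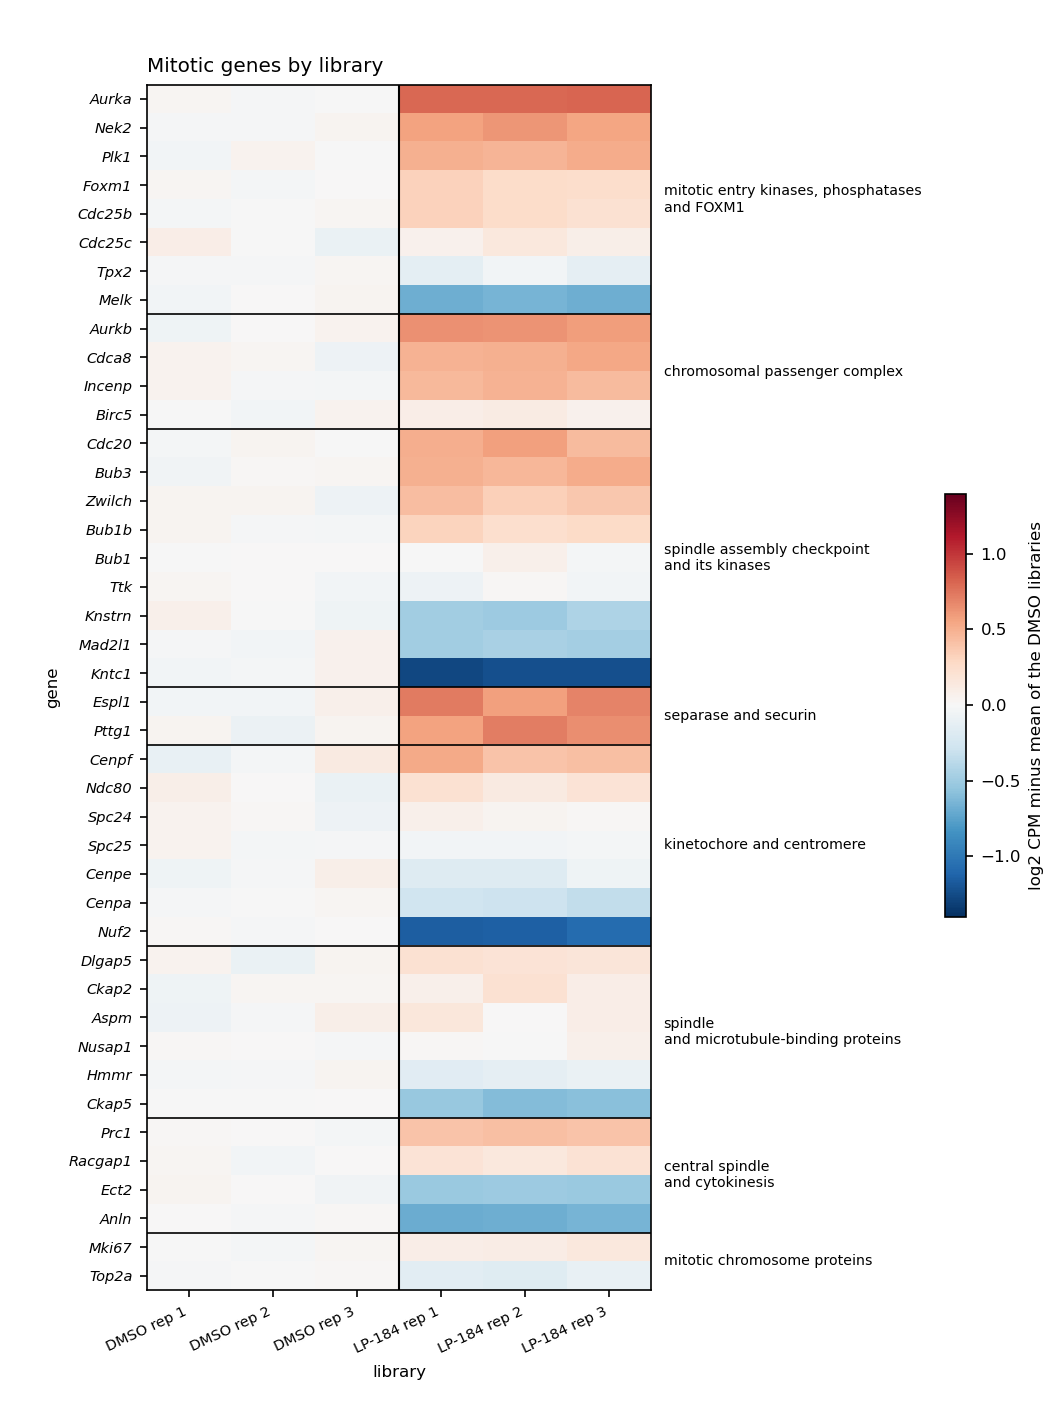
Heat map of the 42 genes (rows, ordered by role and then by fold change) in the 6 libraries (columns). Colour is log2 CPM minus the mean of the 3 DMSO libraries for that gene. The 3 LP-184 libraries show nearly the same colours in each row, and red (higher) and blue (lower) rows occur within the same role, for example Aurka with Melk and Cdc20 with Kntc1.

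Promoter sequences are shown because the CHR and the CCAAT box are the features these genes are known to share, and because genes that rose and genes that fell both carry them. The RefSeq promoter table (GRCm38.p6, 250 bases before to 50 after each start site) held a window for 34 of the 42 genes, and 37 windows in all. It gave none for Tpx2, Foxm1, Dlgap5, Incenp, Aurkb, Spc24, Zwilch and Cdc25c. The letters TTTGAA (the core of the CHR) or CCAAT were searched on both strands. The stretches below run 5′ to 3′ on the gene's own strand, from 120 bases before the start site to 30 after it, with both motifs in capitals on either strand (TTCAAA and ATTGG on the other one).

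The first group rose with LP-184 and carries both motifs: Espl1 (separase) at chr15:102296173-102296322 (plus strand), Cdca8 (borealin) at chr4:124936888-124937037 (minus strand) and Cdc20 at chr4:118437314-118437463 (minus strand). The second fell and carries both as well: Kntc1 (ROD) at chr5:123749606-123749755 (plus strand) and Ckap5 (a microtubule polymerase) at chr2:91526642-91526791 (plus strand). Ckap5 fell on the deposited scale, but its value was 0.20 once the dependence of fold changes on gene length was subtracted. Genes shown had the largest called changes of their kind among members with 1 window. In the first and second groups both motifs also had to lie whole within the printed stretch. The third carries neither motif in the whole window, and holds 1 gene that rose, Pttg1 (securin) at chr11:43425952-43426101 (minus strand), and 1 that fell, Nuf2 at chr1:169531435-169531584 (minus strand). In the GENCODE M21 annotation Pttg1 starts further upstream, at chr11:43426251, so its window lies inside the annotated gene. The bases before that start were not searched for either motif. In Cdca8 and Kntc1 the CHR and a CCAAT box share 1 base, so each pair reads as 1 run of capitals.
Espl1: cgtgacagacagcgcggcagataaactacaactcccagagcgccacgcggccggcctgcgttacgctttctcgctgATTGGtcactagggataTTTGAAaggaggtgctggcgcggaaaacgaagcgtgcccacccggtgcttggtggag
Cdca8: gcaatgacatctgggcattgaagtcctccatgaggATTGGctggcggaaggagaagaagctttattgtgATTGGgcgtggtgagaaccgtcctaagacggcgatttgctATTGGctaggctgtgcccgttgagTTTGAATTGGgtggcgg
Cdc20: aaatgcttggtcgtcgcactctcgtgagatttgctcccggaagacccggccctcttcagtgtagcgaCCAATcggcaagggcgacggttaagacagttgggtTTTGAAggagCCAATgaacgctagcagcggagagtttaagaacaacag
Kntc1: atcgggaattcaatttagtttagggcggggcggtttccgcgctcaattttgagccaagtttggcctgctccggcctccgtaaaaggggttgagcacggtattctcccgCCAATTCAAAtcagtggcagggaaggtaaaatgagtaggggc
Ckap5: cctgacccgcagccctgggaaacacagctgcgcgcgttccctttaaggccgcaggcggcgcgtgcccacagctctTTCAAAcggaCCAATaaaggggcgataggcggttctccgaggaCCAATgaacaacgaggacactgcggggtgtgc
Pttg1: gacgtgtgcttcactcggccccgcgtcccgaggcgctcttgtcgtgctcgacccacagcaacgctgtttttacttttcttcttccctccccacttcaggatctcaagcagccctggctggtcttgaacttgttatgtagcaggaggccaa
Nuf2: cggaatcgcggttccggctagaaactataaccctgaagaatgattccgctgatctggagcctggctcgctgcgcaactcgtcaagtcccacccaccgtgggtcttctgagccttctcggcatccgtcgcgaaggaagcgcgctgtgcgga

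Across the whole windows, 23 of 34 members (67.6%) held the CHR letters, beside 14.1% of the 8854 genes tested that have a window and 17.9% of all 32851 windows of the table. For the CCAAT box the counts were 25 of 34 (73.5%), 43.7% of tested genes and 37.4% of all windows. Counted per window and not per gene, the members' shares were 70.3% for the CHR letters and 75.7% for the CCAAT box. Within 50 bases of the start site, a narrower range chosen after the data were seen, the CHR letters were in 61.8% of members and 3.83% of tested genes. In the 100 bases before the start site alone the members' share was 23.5%. Other matches lay after the start site (Plk1, first base at 31), across it (Prc1, at -5) or further upstream (Top2a, at -179). Both motifs occurred in members that rose, that fell and that were not called. The CHR letters were in 13 of 17 higher members, 7 of 12 lower members and 3 of 5 not called, and the CCAAT box in 14 of 17, 7 of 12 and 4 of 5. A match is a run of letters and not a measured binding site, and these shares were given no test.

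Among the 8 genes of mitotic entry, 5 rose, 2 fell and 1 was not called. Aurka encodes Aurora A, the centrosomal kinase that activates PLK1. It measured 178, 173 and 174 CPM in the DMSO libraries and 305, 306 and 307 CPM in the LP-184 libraries. The groups lay far apart beside their own spread, and Aurka rose by 1.75-fold (log2 fold change 0.81 ± 0.027, SE, n = 3 each, limma adjusted p 2.55e-24). This was the largest rise of the 42 on the deposited scale. Tpx2, the microtubule-associated activator that binds Aurora A, had a log2 fold change of -0.10 ± 0.031 (limma adjusted p 0.00402), a call lost under median centring (-0.013, adjusted p 0.713), and its sign turned to 0.040 once the dependence of fold changes on gene length (the length trend) was subtracted. After that subtraction Aurka stood at 0.49, below Cenpf (0.59) and Espl1 (0.58).

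Plk1, the Polo kinase of mitotic entry and spindle assembly, rose by 0.50 in log2 terms (0.17 with the length trend removed). Nek2, the kinase that separates centrosomes, rose by 0.58 (0.26 with it removed). Cdc25b, a phosphatase that activates CDK1, and Foxm1, the transcription factor of late cell cycle genes, rose by 0.27 and 0.28, and both had a negative sign (-0.056 and -0.043, neither past the test) after that removal. Cdc25c, the second phosphatase of this kind here, measured 24.8, 23.2 and 21.7 CPM in DMSO and 24.3, 25.8 and 24.5 CPM in LP-184 libraries. Its groups overlapped, and its log2 fold change was 0.099 ± 0.075 (limma adjusted p 0.228, 95% interval -0.054 to 0.25), or -0.16 and not called with the length trend removed.

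Melk, a kinase of the AMPK family with high levels in dividing cells, went the other way. It measured 111, 114 and 116 CPM in DMSO and 70.6, 72.5 and 70.9 CPM in LP-184 libraries, with every LP-184 library below every DMSO library. It fell by 1.59-fold (log2 fold change -0.67 ± 0.039, limma adjusted p 1.79e-17), and the value with the length trend removed was -0.26. The summed level of the 8 entry genes was 850.3 to 862 CPM in DMSO and 1048 to 1067 CPM in LP-184 libraries.

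All 4 genes of the chromosomal passenger complex rose, although the sign of Birc5 turned with the length trend removed. This complex corrects faulty kinetochore attachments and later acts at the midzone. Aurkb encodes its kinase, Aurora B. The level of Aurkb was 126, 131 and 135 CPM in DMSO and 203, 202 and 195 CPM in LP-184 libraries, with a wide gap between groups. The rise was 1.53-fold (log2 fold change 0.62 ± 0.033, limma adjusted p 1.61e-18), and 0.24 on the log2 scale with the length trend removed. The scaffold Incenp rose by 0.46 and the borealin gene Cdca8 by 0.51 (0.37 and 0.30 with it removed). Birc5, which encodes survivin and targets the complex to centromeres, rose least.

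Birc5 measured 251, 246 and 261 CPM in DMSO and 268, 274 and 264 CPM in LP-184 libraries, so that the highest DMSO library lay just below the lowest LP-184 library. Its log2 fold change was 0.091 ± 0.028 (limma adjusted p 0.00347), 0.052 with quantile normalization (adjusted p 0.0683) and -0.29 (adjusted p 6.83e-09) with the length trend removed. Within each library, Birc5 minus Aurkb in log2 CPM was 1.00, 0.91 and 0.95 in DMSO and 0.40, 0.44 and 0.43 in LP-184. The ratio of the survivin to the Aurora B transcript was therefore 1.44-fold lower in LP-184 libraries, and the groups did not overlap.

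In the list of the spindle assembly checkpoint, 4 of 9 genes rose, 3 fell and 2 were not called. The genes that fell include Knstrn, a gene of spindle poles and kinetochores that was listed with the checkpoint. The parts of a single checkpoint complex went in opposite directions. Cdc20, the anaphase-promoting complex activator that the checkpoint restrains, measured 218, 228 and 221 CPM in DMSO and 317, 331 and 302 CPM in LP-184 libraries. All LP-184 libraries lay above all DMSO libraries, and Cdc20 rose by 1.42-fold (log2 fold change 0.51 ± 0.029, limma adjusted p 1.77e-17). Once the length trend was taken off, Cdc20 stood at 0.19. Bub3 and Bub1b (BUBR1), which bind CDC20 in the mitotic checkpoint complex, rose by 0.50 and 0.27 on the log2 scale (0.17 and 0.36 with that trend removed). Mad2l1, the MAD2 gene whose product inhibits CDC20 in the same complex, fell by 0.47 on that scale (limma adjusted p 5.99e-17, and -0.80 with the trend removed).

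Within libraries, Mad2l1 minus Cdc20 in log2 CPM was 0.30, 0.23 and 0.36 in DMSO and -0.70, -0.73 and -0.62 in LP-184. The ratio of the MAD2 to the CDC20 transcript was thus 1.98-fold lower, a log2 change of -0.98 (-0.99 with the length trend removed). Mean levels were 274 CPM for Mad2l1 and 223 CPM for Cdc20 in DMSO, and 197 and 317 CPM in LP-184 libraries. Per kb of exon Mad2l1 was below Cdc20 in both groups. The values were 32.6 against 119 CPM in DMSO and 23.5 against 169 CPM in LP-184 libraries. That scale takes all annotated exons of a gene, 8.39 kb for Mad2l1 and 1.87 kb for Cdc20. The order of both transcripts in DMSO therefore depends on the divisor. Against Bub3 the ratio was 1.96-fold lower and against Bub1b 1.68-fold lower, which became a log2 change of -1.15 after subtraction of the length trend.

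The checkpoint's upstream kinases showed no call. Bub1, the kinase that marks centromeric chromatin for shugoshin, measured 146, 148 and 147 CPM in DMSO and 147, 154 and 144 CPM in LP-184 libraries. Ttk, the MPS1 kinase that starts checkpoint signalling at unattached kinetochores, measured 59.3, 58.3 and 56.6 CPM and 55.3, 58.8 and 56.6 CPM. The groups overlapped for both. The log2 fold change of Bub1 was 0.015 ± 0.033 (limma adjusted p 0.688, 95% interval -0.052 to 0.081), although it was called higher under median centring (0.10) and was -0.033, not called, with the length trend removed. That of Ttk was -0.029 ± 0.048 (limma adjusted p 0.586, 95% interval -0.13 to 0.068).

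Kntc1 had the largest fall of the 42 on the deposited scale, although that of Nuf2 was larger with quantile normalization, and those of Nuf2 and Mad2l1 with the length trend removed. It encodes ROD, which with ZWILCH and ZW10 brings the MAD proteins and dynein to kinetochores. It measured 28.6, 28.9 and 30.8 CPM in DMSO and 12.1, 12.5 and 12.5 CPM in LP-184 libraries, with no overlap. This was a 2.37-fold fall (log2 fold change -1.24 ± 0.083, limma adjusted p 1.00e-15). Zwilch rose by 0.38 on the log2 scale. Zw10, which comes from a list of other kinetochore genes, measured 60.7, 64.9 and 63.5 CPM in DMSO and 55.5, 58.4 and 57.0 CPM in LP-184 libraries (log2 fold change -0.15, limma adjusted p 0.00553). The 3 subunits of this complex thus moved by unlike amounts. Kntc1 minus Zwilch in log2 CPM went from -1.06, -1.05 and -0.84 in DMSO to -2.69, -2.55 and -2.59 in LP-184 libraries, a change of -1.63 (-1.12 with the length trend removed). Knstrn, the kinastrin gene of spindle poles and kinetochores, fell by 0.47 on the log2 scale.

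Separase and securin, the pair that acts at anaphase onset, both rose. Espl1, the protease separase, measured 54.6, 54.2 and 58.9 CPM in DMSO and 92.4, 83.0 and 90.3 CPM in LP-184 libraries. Pttg1, its inhibitor securin, measured 53.3, 48.9 and 53.1 CPM and 76.8, 85.3 and 81.4 CPM. In both genes all LP-184 libraries lay above all DMSO libraries, and LP-184 replicate 2 was the lowest of its group for Espl1 and the highest for Pttg1. Espl1 rose by 1.58-fold (log2 fold change 0.66 ± 0.047, limma adjusted p 6.24e-15). Pttg1 rose by 1.57-fold (log2 fold change 0.65 ± 0.048, limma adjusted p 2.44e-14). With the length trend removed the values were 0.58 for Espl1 and 0.28 for Pttg1, so the likeness of the rises was lost.

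Of 7 genes of the kinetochore and centromere, 2 rose, 3 fell and 2 were not called. The NDC80 complex, which binds microtubules as a heterotetramer of NDC80, NUF2, SPC24 and SPC25, changed in 1 subunit gene far more than in the rest. Nuf2 measured 199.5, 195 and 198 CPM in DMSO and 88.6, 89.3 and 93.4 CPM in LP-184 libraries. Every LP-184 library was under the lowest DMSO library by a wide margin, and Nuf2 fell by 2.18-fold (log2 fold change -1.13 ± 0.033, limma adjusted p 9.83e-26).

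Ndc80, the subunit gene whose product pairs with NUF2, rose by 0.18 on the log2 scale. Spc24 measured 85.8, 83.7 and 78.6 CPM in DMSO and 87.1, 84.6 and 83.5 CPM in LP-184 libraries, and its groups overlapped. Its log2 fold change was 0.041 ± 0.042 (limma adjusted p 0.368, 95% interval -0.043 to 0.13). Spc24 was called higher under median centring (0.13) and, relative to the length trend of all genes, called lower (-0.29). Spc25 measured 81.5, 77.8 and 77.9 CPM and 76.9, 77.1 and 77.6 CPM. Its groups did not overlap, with a gap smaller than the spread among DMSO libraries, and its log2 fold change was -0.034 ± 0.041 (limma adjusted p 0.450, 95% interval -0.12 to 0.049). Relative to the length trend, Spc25 was called lower (-0.36).

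Scaled to exon length, the mean level of Nuf2 went from 31.2 to 14.3 CPM per kb of exon. That of Ndc80 went from 12.7 to 14.4, that of Spc24 from 32.1 to 33.1 and that of Spc25 from 24.8 to 24.2. On this scale, which takes all annotated exons of a gene, Nuf2 stood above Ndc80 in DMSO and level with it in LP-184 libraries. Within libraries, Nuf2 minus Ndc80 in log2 CPM was 1.19, 1.23 and 1.35 in DMSO and -0.11, -0.011 and -0.014 in LP-184, a 2.47-fold lower ratio. The ratios among Ndc80, Spc24 and Spc25 moved by 1.05-fold to 1.16-fold, and with the length trend removed by 0.065 (Spc24 to Spc25) to 0.49 (Ndc80 to Spc25) in log2 terms. These and the other subunit ratios, 15 in all, were chosen after their values were seen and were given no test. The groups did not overlap in any of the 15, and Spc24 to Spc25, which moved by 1.05-fold, is among them. No share over other gene pairs was taken, and 79.1% of all genes tested did not overlap on their own. A lack of overlap by itself therefore sets none of these ratios apart.

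**Figure D2:**
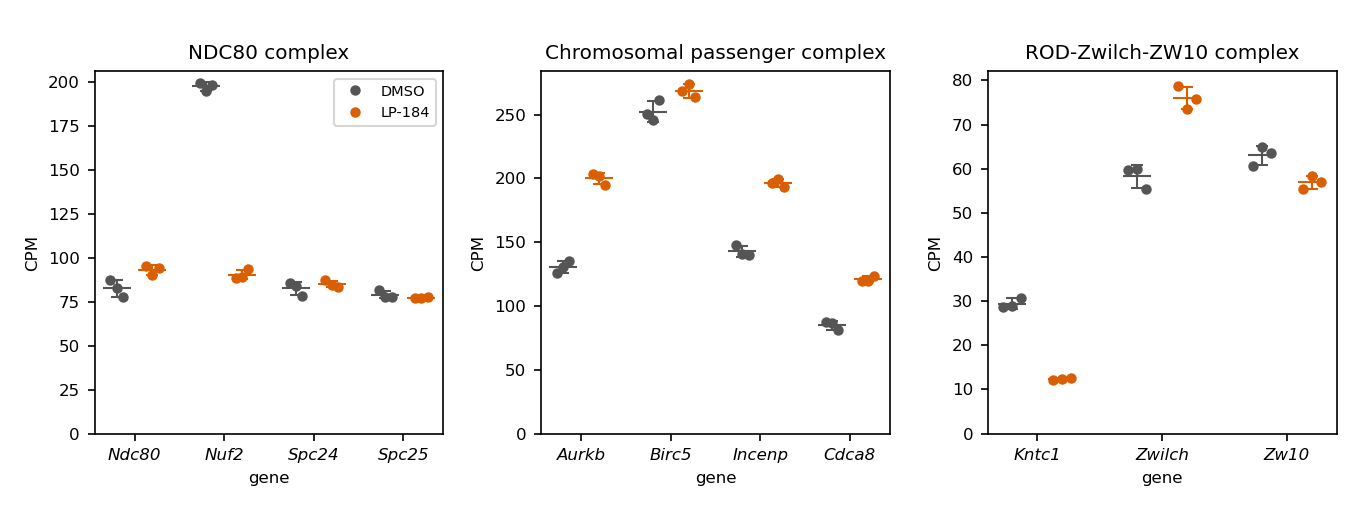
CPM (linear axis from 0) of the subunit genes of 3 complexes in each library, grey for DMSO and orange for LP-184. Points are libraries, and the bars give the mean and SD of 3 libraries. The LP-184 points of Nuf2 and Kntc1 lie far below their DMSO points, while those of their partners lie close to or above theirs, apart from Zw10, which lies slightly lower.

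Cenpf, a large outer kinetochore protein, measured 53.6, 56.3 and 62.8 CPM in DMSO and 82.8, 76.0 and 76.9 CPM in LP-184 libraries. All LP-184 libraries were higher, and Cenpf rose by 1.37-fold (log2 fold change 0.45 ± 0.051, limma adjusted p 6.98e-10). Cenpa, the centromeric histone, fell by 0.31 on the log2 scale (limma adjusted p 1.02e-12). Cenpe, the kinetochore motor that carries chromosomes to the metaphase plate, was called at -0.14 ± 0.055 (limma adjusted p 0.0195), but its groups overlapped by 1 library on each side. Its call was lost under median centring (-0.054, adjusted p 0.368) and quantile normalization (-0.11, adjusted p 0.0891). It was also lost without DMSO replicate 3 (-0.098, adjusted p 0.140). Leaving out LP-184 replicate 1 (-0.12) or LP-184 replicate 2 (-0.12) ended it too, and its sign turned to 0.22 with the length trend removed.

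Of the 6 genes for spindle and microtubule-binding proteins, 2 rose, 2 fell and 2 were not called. Dlgap5, the HURP gene that stabilises microtubules near chromosomes, measured 90.9, 82.3 and 90.2 CPM in DMSO and 102, 99.9 and 98.9 CPM in LP-184 libraries. The groups did not overlap, and the rise was 1.14-fold (log2 fold change 0.19 ± 0.041, limma adjusted p 6.44e-05). Ckap2, another spindle protein, had a log2 fold change of 0.12 ± 0.037 (limma adjusted p 0.00335), which was 0.079 (adjusted p 0.0624) without LP-184 replicate 2 and turned to -0.15 with the length trend removed.

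Ckap5, the microtubule polymerase ch-TOG, measured 169, 169.6 and 171 CPM in DMSO and 118, 111 and 113 CPM in LP-184 libraries. All LP-184 libraries lay below all DMSO libraries, by 1.49-fold (log2 fold change -0.58 ± 0.033, limma adjusted p 1.54e-17), yet relative to the length trend of all genes Ckap5 was higher (0.20, adjusted p 3.82e-06). Hmmr, a spindle assembly protein also known as RHAMM, fell by 0.13 on the log2 scale (limma adjusted p 8.59e-04), a call lost under median centring (-0.039).

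Nusap1, which bundles spindle microtubules, measured 112, 111 and 109 CPM in DMSO and 112, 109.9 and 117 CPM in LP-184 libraries. Aspm, a protein of spindle poles, measured 51.3, 53.3 and 56.8 CPM and 60.2, 54.1 and 57.2 CPM. Both had overlapping groups. The log2 fold change of Nusap1 was 0.029 ± 0.036 (limma adjusted p 0.467, 95% interval -0.044 to 0.10). That of Aspm was 0.088 ± 0.052 (limma adjusted p 0.120, 95% interval -0.017 to 0.19). Under median centring both were called higher (0.12 and 0.17), and Aspm also when DMSO replicate 3 (0.13) or LP-184 replicate 2 was left out (0.13) and after subtraction of the length trend (0.13, adjusted p 0.0350).

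The 4 genes of the central spindle and cytokinesis split evenly. Prc1, which crosslinks the midzone microtubules, measured 121, 120.4 and 118 CPM in DMSO and 158, 161 and 158 CPM in LP-184 libraries. It rose by 1.33-fold (log2 fold change 0.41 ± 0.032, limma adjusted p 1.17e-13) with no overlap, and its value was 0.21 with the length trend removed. Racgap1, the GTPase-activating subunit of centralspindlin, rose by 0.18 on the log2 scale. Ect2, the exchange factor for RhoA that centralspindlin recruits, fell by 0.52 (-0.22 with that trend removed).

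Anln, the anillin that links RhoA, actin and septins in the contractile ring, had the highest level per exon length of these 4 in DMSO, at 77.8 CPM per kb of exon. It measured 706, 696 and 713 CPM in DMSO and 435, 439.8 and 448 CPM in LP-184 libraries, and no library of one group came near the other. It fell by 1.60-fold (log2 fold change -0.68 ± 0.021, limma adjusted p 3.84e-25). Within libraries, Ect2 minus Racgap1 in log2 CPM was 0.40, 0.43 and 0.33 in DMSO and -0.33, -0.27 and -0.34 in LP-184, a 1.62-fold lower ratio, with a log2 change of -0.70 (-0.36 with the length trend removed).

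The proteins of mitotic chromosomes, widely used as markers of dividing cells, changed little and in opposite directions. Top2a, the topoisomerase that untangles sister chromatids, measured 821, 830.4 and 842 CPM in DMSO and 751, 740.5 and 772 CPM in LP-184 libraries. Mki67, the Ki-67 protein of the chromosome surface, measured 167, 164 and 171 CPM and 178, 180.0 and 185 CPM. In each gene the groups stood apart without overlap, Top2a lower and Mki67 higher with LP-184. Top2a fell by 0.14 on the log2 scale (limma adjusted p 1.22e-07), and by less under median centring (-0.051) and quantile normalization (-0.046). Mki67 rose by 0.12 (limma adjusted p 9.06e-04), which was 0.20 under median centring, and 0.012 and no longer called with the length trend removed.

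**Figure D3:**
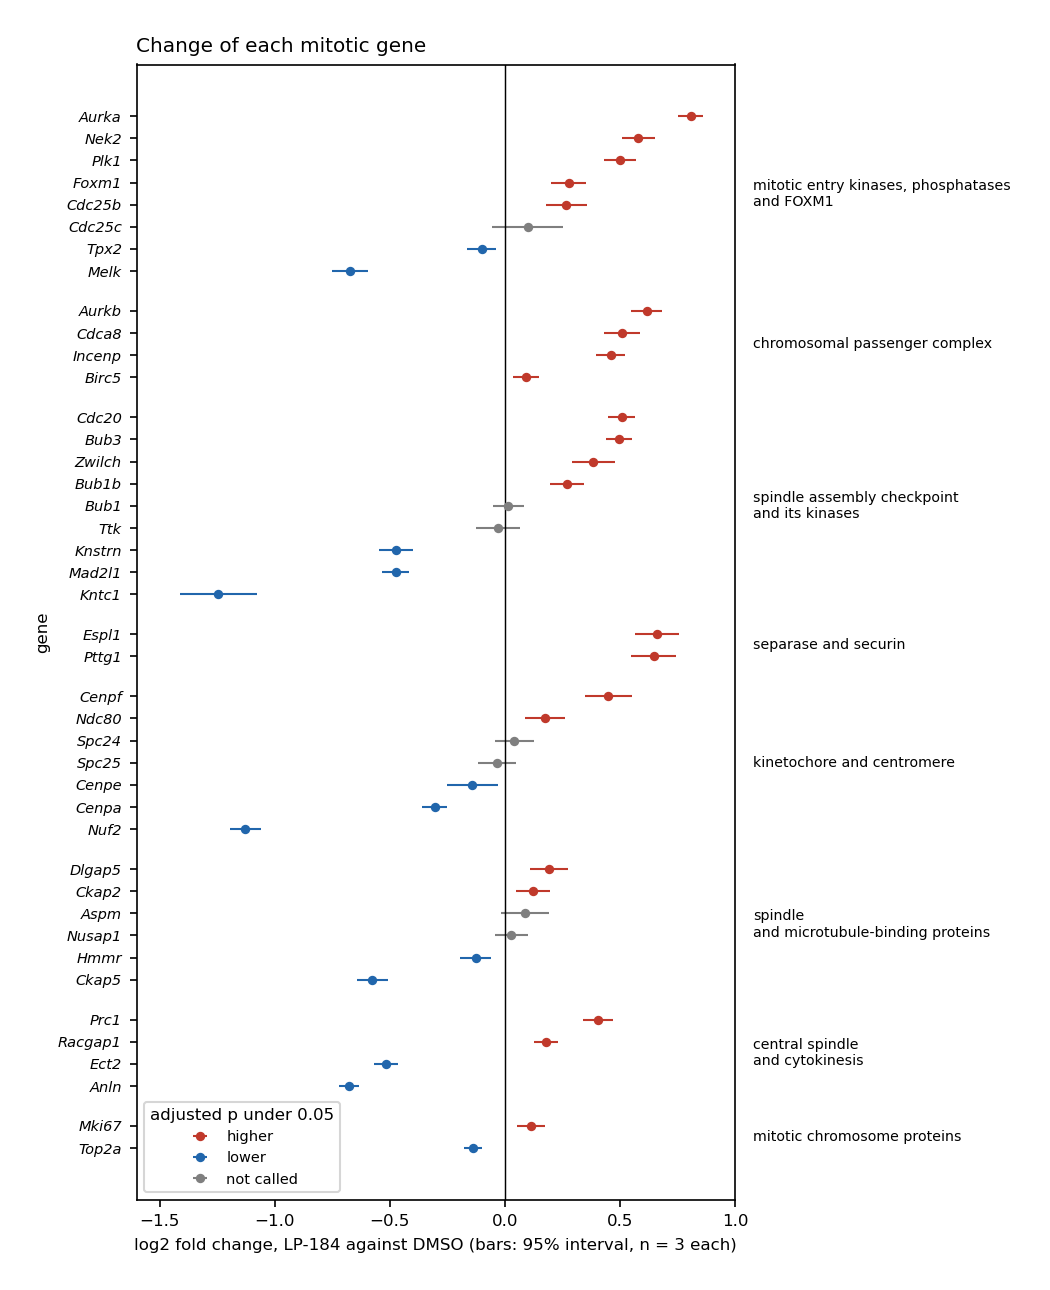
Log2 fold change of each of the 42 genes, LP-184 against DMSO, with its 95% interval from limma (n = 3 libraries each), grouped by role and coloured by call. Points run from -1.24 (Kntc1) to 0.81 (Aurka), and all roles but the chromosomal passenger complex and the separase pair hold points on both sides of 0. The signs of Cdc25b, Cdc25c, Foxm1, Tpx2, Birc5, Bub1, Spc24, Cenpe, Ckap2 and Ckap5 turned with the length trend removed.

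Fold changes in these libraries followed gene length, and the mitotic genes did so too. The span of a gene here is the distance from its first to its last annotated exon in GENCODE M21 (GRCm38). The 22 genes that rose had a median span of 19.3 kb, the 13 that fell 47.4 kb and the 7 not called 30.7 kb. Spearman's correlation of log2 fold change with span was -0.57 over the 42 members and -0.50 over the 11462 tested genes with a span. The genes share the same 6 libraries and are not independent replicates, so these are descriptions.

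Under 20 kb, 11 of 16 members were higher and 2 lower, beside 53.1% higher and 21.4% lower over all tested genes of that span. These 2 were Mad2l1 (11.8 kb) and Cenpa (8.05 kb), named after their values were seen. From 20 to 40 kb, 9 of 17 were higher and 4 lower, beside 44.5% and 32.7%. From 40 kb upward 2 of 9 were higher and 7 lower. Over all tested genes of 40 kb or more, 73.6% were lower and 12.2% higher. The 2 long members that rose were Cenpf (47.5 kb, at chr1:189640606-189688086) and Bub1b (43.4 kb, at chr2:118598211-118641591).

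With the trend over all genes subtracted, the members numbered 20 higher, 14 lower and 8 not called, with a median of 0.026. Over all 11462 genes the same subtraction gave 4045 higher, 4463 lower and 2954 not called, with a median of -0.028. Nuf2 (33.5 kb, at chr1:169497934-169531464) kept its size of change, at -1.14. Kntc1 (71.9 kb, at chr5:123749716-123821593) went from -1.24 to -0.72, and Anln (57.2 kb, at chr9:22332012-22389188) from -0.68 to -0.37. Mad2l1 went from -0.47 to -0.80 and Cenpa from -0.31 to -0.68. Aurka (14.3 kb, at chr2:172356190-172370535) went from 0.81 to 0.49, while Espl1 (28.1 kb) and Cenpf stood at 0.58 and 0.59. Ckap5, the longest of the 42 (93.9 kb, at chr2:91526762-91620664), turned sign as given above.

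**Figure D4:**
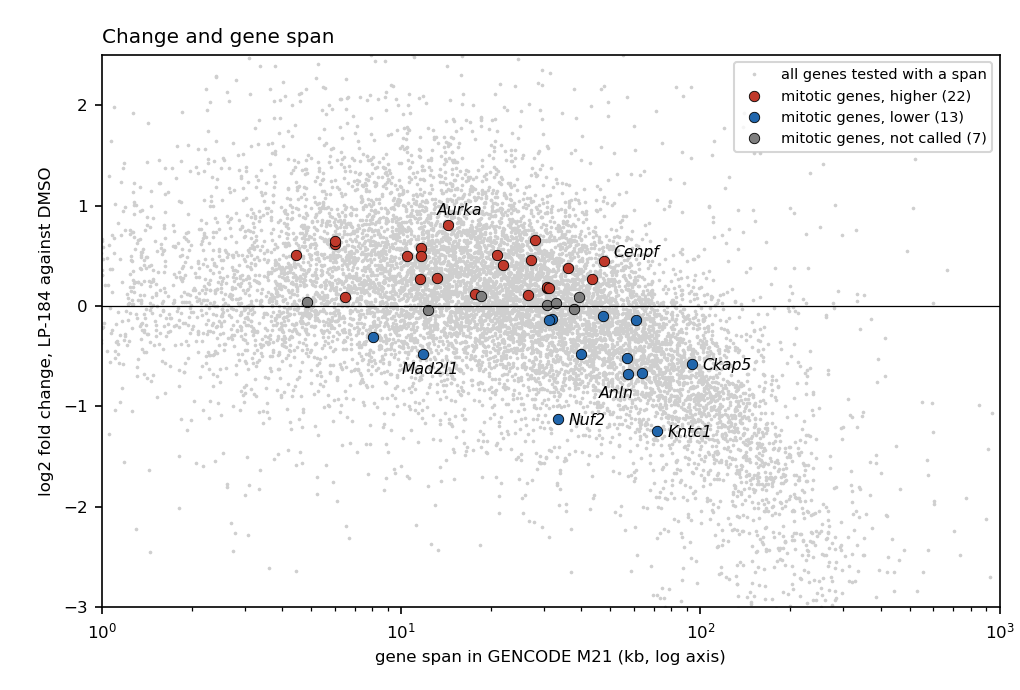
Log2 fold change (LP-184 against DMSO) against gene span in kb on a log axis, with tested genes in grey and the 42 mitotic genes in colour by call. The axes leave out 755 of 11462 tested genes with a span and none of the 42. Higher members lie mostly at short spans and lower members mostly at long ones, with Nuf2 and Mad2l1 low for their span and Cenpf high for its span.

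For some members, exons overlap those of a neighbouring gene of the table on the opposite strand: Prc1 with Rccd1 (11.1% of its exon bases), Nek2 with Gm38037 (6.60%), Nusap1 with Oip5 (4.24%), Cdc20 with Elovl1 (2.84%) and Cdc25b with Spef1 (2.47%). Opposite-strand overlaps with genes absent from the table were those of Cdc25c with Gm3550 (12.7%, the largest), Plk1 with Gm44985 (7.09%) and Zwilch with Lctl (5.93%). Cdca8 (4.48%) and Knstrn (2.39%) had such overlaps too. The strand setting of the counting was not given in the sources used here, so reads from such shared bases cannot be assigned.

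Other genes of the same machinery, in 5 lists of 77 genes of which 76 were tested (Lin54 was not in the table), also moved in both directions: 35 were higher, 26 lower and 15 not called, beside 38.3% higher and 40.0% lower of all genes tested. Their median log2 fold change was 0.029. Of 15 other inner kinetochore genes, which hold the kinetochore on CENP-A chromatin, 4 rose, 5 fell and 6 were not called. The largest changes there were falls of Cenpp (-2.41), Cenpc1 (-0.85), the CENP-C gene that links centromere and outer kinetochore, and Cenpk (-0.84). With the length trend removed the values were -0.72 for Cenpp, which spans 189 kb, -0.62 for Cenpc1 and -0.99 for Cenpk, so that Cenpp no longer led. Cenpp was also low in the LP-184 libraries, at 46, 17 and 25 reads (128, 167 and 137 in DMSO), and its standard error was 0.23.

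Among 14 other genes of the outer kinetochore and corona, 7 rose, 4 fell and 3 were not called. Mad1l1, the MAD1 gene whose product loads MAD2 at kinetochores, measured 49.9, 48.8 and 51.6 CPM in DMSO and 8.76, 9.87 and 6.50 CPM in LP-184 libraries, a 6.01-fold fall (log2 fold change -2.59 ± 0.10, limma adjusted p 2.16e-22). Its span is 313 kb, longer than that of any of the 42, and its log2 fold change after subtraction of the length trend was -0.22 (adjusted p 0.0357). In the opposite direction, Nsl1, a subunit gene of the MIS12 complex that anchors NDC80, measured 18.5, 21.4 and 20.1 CPM and 71.1, 64.0 and 64.3 CPM, a 3.31-fold rise (log2 fold change 1.73 ± 0.064, limma adjusted p 6.53e-23). Ska3, of the SKA complex that couples NDC80 to microtubules, rose by 0.88 on the log2 scale.

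Of 18 genes of the anaphase-promoting complex and its partners, 10 rose, 6 fell and 2 were not called, and the largest changes were those of the subunit genes Anapc7 (1.06), Anapc4 (-0.89) and Anapc10 (-0.86, or -0.40 with the length trend removed). Of 15 genes of cyclin B-CDK1 and its regulators, 10 rose, 4 fell and 1 was not called. Cdkn1a, the CDK inhibitor p21, measured 12.6, 10.2 and 10.9 CPM in DMSO and 101, 97.6 and 102 CPM in LP-184 libraries. It rose 8.87-fold (log2 fold change 3.15 ± 0.068, limma adjusted p 1.47e-29), far beyond any of the 42. The phosphatase gene Cdc25a rose by 0.72 (0.46 with that trend removed) and Bora, the cofactor of Aurora A in PLK1 activation, by 0.40.

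The 14 tested regulators that bind CHR and CCAAT promoters or form DREAM split into 4 that rose, 7 that fell and 3 not called. Tfdp2, a partner of E2F proteins, spans 127 kb and had a log2 fold change of -1.52, or -0.40 with the length trend removed. Rbl1, the pocket protein p107 of DREAM, measured 123, 119 and 119.8 CPM in DMSO and 54.6, 54.0 and 58.8 CPM in LP-184 libraries, a 2.16-fold fall (log2 fold change -1.11 ± 0.042, limma adjusted p 9.71e-23). Rbl1 spans 58.6 kb, and its value was -0.79 with the length trend removed. Nfya, a subunit gene of the CCAAT-binding factor NF-Y, rose by 0.80.

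**Figure D5:**
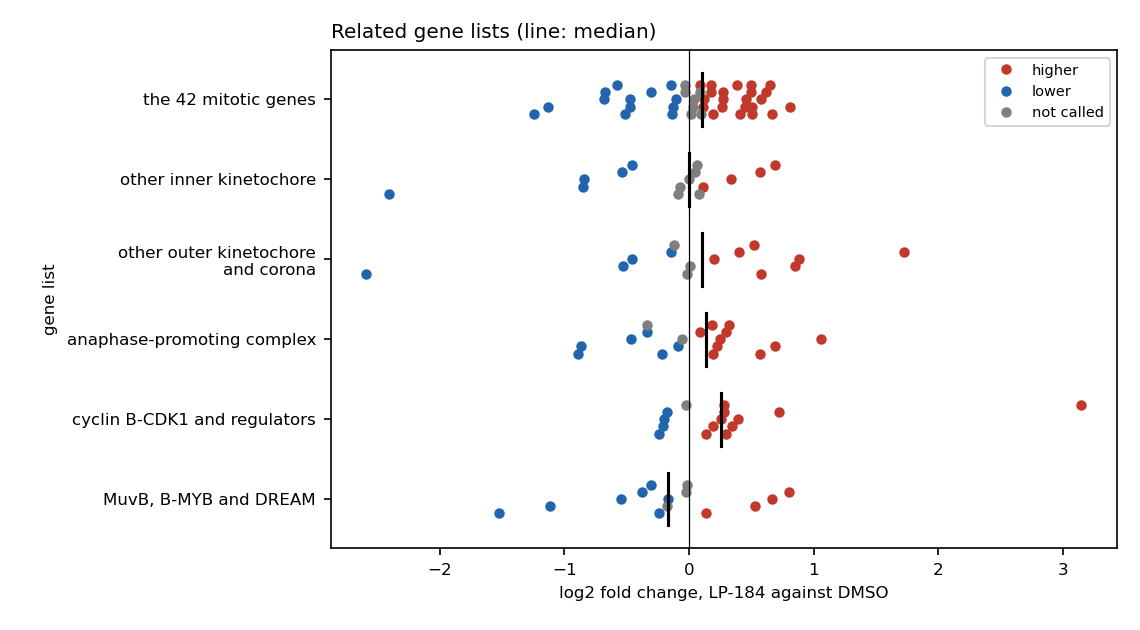
Log2 fold change (LP-184 against DMSO) of each gene in the 42 and in the 5 related lists, coloured by call, with a black line at each list's median. The 42 lie between -1.24 and 0.81, while single genes of the related lists reach -2.59 (Mad1l1, which was -0.22 with the length trend removed) and 3.15 (Cdkn1a), and every list holds genes on both sides of 0.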

How the data were processed

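RNA sequencing of 4T1 cells gave 3 DMSO and 3 LP-184 libraries. The authors deposited log2 CPM for 12656 genes, with mm10, STAR 2.7, edgeR, Subread 2.0, featureCounts and fastp listed, without settings, in the submitters' processing notes. The deposited log2 values became whole reads in every library once their prior count was removed (100% of values, tolerance 1e-06 reads), which gave the depth. The authors also deposited a comparison table with log2 fold changes and p-values, with no test named in the sources used here.

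The 11931 genes that reached log2 CPM 0 in 3 libraries or more were tested two-sided with limma 3.58.1 in R 4.3.3. The linear model had 2 groups, the empirical Bayes step used the mean-variance trend, and adjusted p-values (Benjamini-Hochberg over all genes tested) were held to 0.05. All 42 members passed the filter. The members, gene lists, length alternative and rule for named genes were chosen with earlier results of these data known. The rule gives every member's fold change, with libraries' values for the largest called rise and fall of each role, members past 1.5-fold and those not called, and the 3 largest changes of each related list. Spans and exons came from GENCODE M21, matched by symbol (95.9% of genes), and all 42 members matched. A loess fit (parameter 0.3) of log2 fold change against log10 span gave the length trend, which was subtracted from the LP-184 libraries. Calls and p-values with the trend removed therefore concern the distance of a gene from that fitted trend, not LP-184 against DMSO itself. They take no account of the trend's own uncertainty or of the scatter of genes around it. The median centring and quantile scalings moved the median fold change of all genes by 0.09 and 0.08, and removing the length trend moved the median gene by -0.17. Summaries were made with pandas 2.3.3 and numpy 2.4.6 in Python 3.11.15. The fitting was tested on simulated data.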

Additional observations from a re-analysis of the deposited data

How the results depend on the processing

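The counts of members called kept within 1.5 times of 22 higher and 13 lower under quantile normalization, median centring, pseudocounts of 1 and 0.1 on CPM, a filter at log2 CPM 2, no filter, a robust fit, no variance trend, a threshold of 0.01, voom on whole reads, the replicate block and removal of the length trend. Leaving out each library gave 22 to 23 higher and 12 to 13 lower. The members' median log2 fold change was 0.19 with median centring, 0.026 with the length trend removed and 0.10 to 0.13 without 1 library. Signs turned with the length trend removed in Cdc25b (-0.056), Foxm1 (-0.043), Tpx2 (0.040), Birc5 (-0.29), Spc24 (-0.29), Cenpe (0.22), Ckap2 (-0.15) and Ckap5 (0.20), by subtraction of the trend itself, and in Cdc25c (-0.16) and Bub1 (-0.033), called in neither fit. Calls of Tpx2, Birc5, Cenpe and Ckap2 were lost without the variance trend (adjusted p 0.0644, 0.0775, 0.0684 and 0.0816), and the cause was not tested. Cdc25c was called higher under median centring (0.19) and quantile normalization (0.19). The CHR was in 23.5% of members in the 100 bases before the start site, a shorter window. Libraries of the same number showed no shared deviation over all genes tested (r of -0.010, -0.018 and -0.006). Values of this size cannot show whether the libraries were handled in pairs. With the replicate number as a block the members stood at 22 higher and 13 lower, and all genes at 4550 and 4741. With 3 libraries a group and a median standard error of 0.035, changes near 0.10 on the log2 scale sit at the edge of the test.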
